A study of Homo sapiens with 2 samples.

Results

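The amino acid transporter solute carriers (SLCs) are membrane proteins that move amino acids across the plasma membrane or the lysosomal membrane. The 33 genes followed here were a fixed list of 5 SLC1, 9 SLC3 and SLC7, 5 SLC6, 2 SLC36 and 9 SLC38 members, with SLC43A1, SLC43A2 and SLC16A10. Each gene was read by every probe set of the array whose annotation held that symbol and no other, and all 33 had at least 1 such probe set. They held 88 of the 41097 probe sets with 1 gene symbol, and 33 of the 19775 genes. The cells were AsPC-1, an established human line of pancreatic ductal adenocarcinoma (PDAC), transfected either with negative control siRNA or with siRNA against PGR, the progesterone receptor. Both cultures were of the same line, for which the study names a single culture medium. An siRNA lowers a transcript without deleting the gene. Biotin-labelled RNA of each culture was hybridised to a 3′ expression array, with 1 array per condition and no replicates, so a single line and a single pair of arrays limit every value. The arrays were made to look for how PGR acts on the behaviour of PDAC cells, in a study centred on macropinocytosis.

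Amino acid carriers work as sodium-driven pumps, proton-driven pumps, exchangers or uniporters, and most of them carry several related amino acids. Exchangers of SLC7 that carry large neutral amino acids are light chains that need a heavy chain of SLC3 to reach the membrane. In PDAC cells these carriers supply glutamine, leucine and arginine directly, beside the protein that is taken up by macropinocytosis and digested in lysosomes, and lysosomal carriers release the amino acids that macropinocytosis brings in. Several of their genes are known targets of ATF4, the transcription factor of the amino acid response, and of MYC.

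PGR, the targeted gene, was read first as a check of the labels. Its brighter probe set gave an intensity of 16.1 under the control label and 73.3 under the PGR siRNA label. The dimmer one gave 1.53 and 4.80. All of these values lay below the signal floor of 97.9, which is the median intensity of all named probe sets. Their order goes against the labels, but the log2 differences of 2.12 and 1.20 lay inside the scatter of like signal described below (-2.64 to 2.73 and -2.04 to 1.77). PGR on these arrays thus cannot check the labels, and every direction below rests on the labels alone. By western blot, the study counts AsPC-1 among lines with high PGR protein. Of the duplexes listed by the study, the sources used here do not state which was used for the array. They are shown because they define the perturbation, as the antisense strand with the seed (bases 2 to 8) in capitals:
si-PGR-1 antisense: uUGCCUCAaaccaauugcctt
si-PGR-2 antisense: uCUUGGGUaauugugcagctt

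The difference was that of log2(intensity + 1) between PGR siRNA and control, and a value described as higher or lower refers to the array labelled PGR siRNA. With 1 array per condition no test could be made, so 1.5-fold and 2-fold serve as rules of size. A gene was read by its brightest probe set and called measured where the mean of its log2 values reached the floor, which 11124 genes did. Beside a difference stands the middle 95% of the differences of the 1000 probe sets nearest in mean signal, which describes the scatter between these arrays and not the error between cultures. Intensities of different probe sets cannot be set against each other as transcript levels. In bulk RNA, fewer cells of a type and less RNA per cell cannot be told apart.

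The deposited arrays had been scaled alike, with a mean of 499.9 on each after removal of 2% of the values at either end. The 18 probe sets of hybridization controls added to each array were 0.026 to 0.51 higher on the log2 scale, with a median of 0.21, and the 3 GAPDH control probe sets were 0.23 to 0.25 higher, whereas the 3 ACTB control probe sets stood at -0.034 to 0.069. The median difference ran from -0.0032 in the dimmest 2781 measured genes to 0.036 in the brightest 2781. Of 9 epithelial markers, 8 passed the floor on both arrays, among them KRT18 at 48572 and 55425 and EPCAM at 20351 and 20305. None of 3 leukocyte, 3 acinar and 3 endocrine markers did so, and of 6 fibroblast markers only COL1A1 did, at 299.3 and 298.5. The summed intensity of the epithelial markers was 133895 and 140242, that of the fibroblast markers 499 and 519, that of the leukocyte markers 232 and 157, that of the acinar markers 48.7 and 115, and that of the endocrine markers 22.3 and 29.4. Their part in the results was not tested.

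Promoter sequence was searched for motifs of factors known to act on these genes. RefSeq promoters of GRCh38.p14, each with 250 bases before and 50 after a start, were given for 27 of the 33 genes in 48 entries. The ATF4 element TGATGNAA, searched on both strands, was present in 6 (12.5%) of these entries and in 1270 (3.62%) of all 35116 entries. The E-box CACGTG, read by MYC and by the lysosomal factors TFEB and TFE3, was present in 8 (16.7%) and in 2548 (7.26%). The palindrome read by steroid receptors including PGR (GNACA and TGTNC, 3 bases apart) was in none of the 48 and in 137 (0.39%) of all. At so low a share, a count of 0 among 48 says nothing of the carriers, and sequence outside these entries was not searched. Entries of 1 gene are alternative starts and not independent, and a match of letters is a description. The windows that hold the ATF4 element are shown on the strand of the gene, with the element in capitals:
SLC7A1: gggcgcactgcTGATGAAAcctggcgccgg
SLC38A1: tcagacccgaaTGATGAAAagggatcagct
SLC1A5: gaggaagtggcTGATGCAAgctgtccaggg
SLC1A3: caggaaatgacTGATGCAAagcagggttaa
SLC1A4: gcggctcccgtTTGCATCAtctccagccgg
SLC3A2: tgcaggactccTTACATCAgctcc

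In SLC1A4 and SLC3A2 the element reads on the opposite strand. The windows lie at chr13:29595663-29595692 (minus strand) for SLC7A1, chr12:46266502-46266531 (minus) for SLC38A1, chr19:46784893-46784922 (minus) for SLC1A5, chr5:36596357-36596386 (plus) for SLC1A3, chr2:64989381-64989410 (plus) for SLC1A4 and chr11:62881725-62881748 (plus) for SLC3A2. Counted from the first transcribed base as 0, the match began at 7 in SLC7A1, -4 in SLC38A1, -97 in SLC1A5, -220 in SLC1A3, -7 in SLC1A4 and 37 in SLC3A2. The E-box was in an entry of SLC1A5, SLC36A1, SLC38A5, SLC38A7, SLC43A1, SLC7A5, SLC7A7 and SLC7A8. Windows are shown for genes described below, the proton-driven carrier SLC36A1 with a pair of matches, the lysosomal carrier SLC38A7 and the leucine exchanger SLC7A5, with CACGTG in capitals:
SLC36A1: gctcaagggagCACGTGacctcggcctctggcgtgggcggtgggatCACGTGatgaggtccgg
SLC38A7: tgatgcatgctCACGTGtctccgcagcc
SLC7A5: gccggacgacgCACGTGctccgagctgg

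They lie at chr5:151447549-151447611 (plus strand), chr16:58684740-58684767 (minus) and chr16:87869621-87869648 (minus). The matches span -43 to -3 in SLC36A1, 14 to 19 in SLC38A7 and -130 to -125 in SLC7A5.

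Most of the carriers differed little between the arrays, as did most measured genes. Of the 33 genes 24 were measured, 12 of them higher and 12 lower, where 53.8% of all measured genes were higher, with a median difference of 0.011 against 0.023 over all measured genes. The absolute difference had a median of 0.14 among the carriers and 0.16 among all measured genes. A single carrier, the glutamine transporter SLC38A3, was at least 1.5-fold higher, and none was at least 1.5-fold lower, where 2.45% and 3.03% of all measured genes were. None reached 2-fold, which 0.351% of all measured genes did on the higher and 0.423% on the lower side, so a count of 0 among 24 genes says nothing of the carriers. None of the 24 lay outside the middle 95% of probe sets of like signal. Of all measured genes 2.72% lay above and 2.23% below, so this count and those at 1.5-fold say nothing of the carriers either. The plot of both intensities per gene shows the pairs of points close together to the right of the floor and apart to its left.

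**Figure D1:**
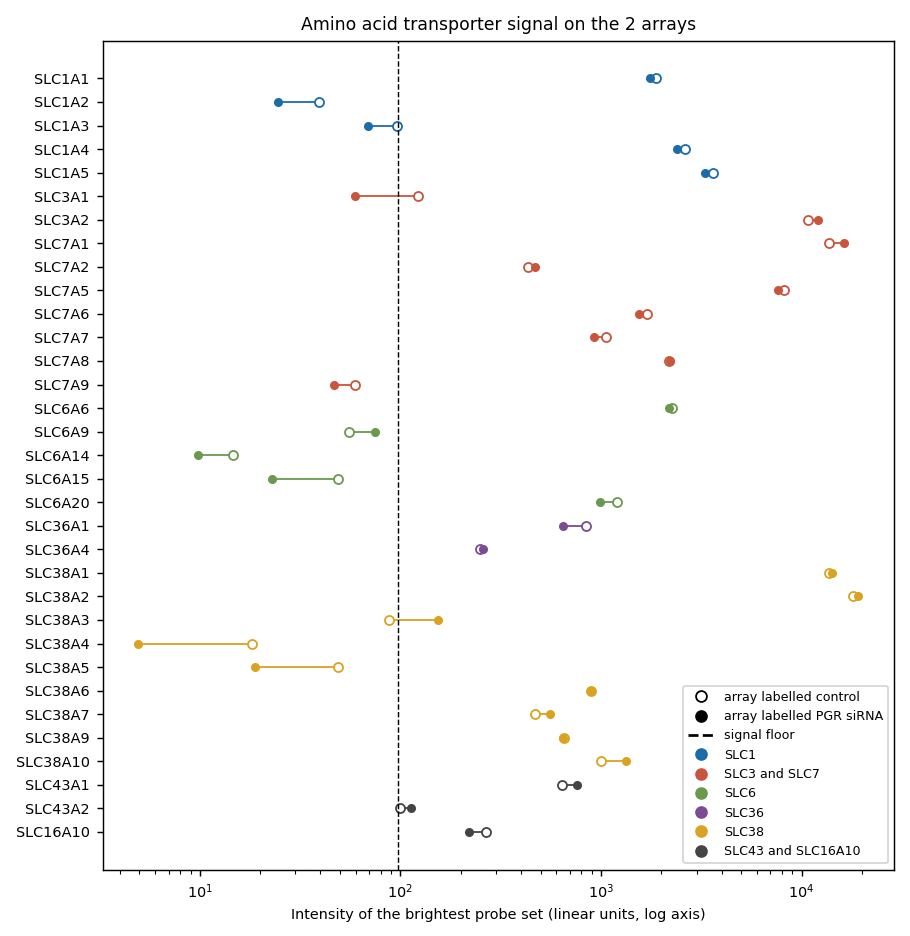
Intensity of the brightest probe set of each of the 33 carriers (log axis), with open circles for the array labelled control, filled circles for the one labelled PGR siRNA, a line joining each pair, colour giving the family, with the signal floor of 97.9 dashed. The pairs of SLC38A3 and SLC3A1 straddle the floor, 8 genes lie below it on both arrays, and the other 23 lie above it on both.

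The sodium-coupled SLC1 carriers bring in glutamate and small neutral amino acids. SLC1A5, the main glutamine importer of many tumour cells, had an intensity of 3629 on the control array and 3294 on the PGR siRNA array, a difference of -0.14 in a middle 95% of -0.42 to 0.32. SLC1A4, which exchanges alanine, serine and cysteine, read 2626 and 2397 (-0.13) on its brightest probe set. SLC1A1, a carrier of glutamate, aspartate and cysteine, read 1874 and 1765 (-0.087). All 3 measured SLC1 genes were therefore lower, by at most 0.14, and each lay well within the scatter of like signal. The probe sets of SLC1A4 did not share a sign, with 0.015 at 2366 and 2392, -0.14 at 1719 and 1558 and 0.049 at 353 and 365. Both probe sets of SLC1A1 were lower, the dimmer at 429 and 420 (-0.032). SLC1A2 and SLC1A3, glutamate carriers best known from glia, were below the floor on both arrays, with SLC1A3 closest to it at 96.1 and 68.8.

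The heavy chain SLC3A2, known as CD98, brings the SLC7 exchangers to the plasma membrane. It read 10759 and 12106, a difference of 0.17 in a middle 95% of -0.26 to 0.33. SLC7A5, the leucine exchanger that pairs with it, read 8202 and 7613, a difference of -0.11 in a middle 95% of -0.32 to 0.35. Heavy and light chain thus lay on opposite sides of 0, neither outside the scatter. The light chain SLC7A8, an exchanger of neutral amino acids, read 2176 and 2219 (0.028) on its brightest probe set and 1733 and 1635 (-0.084) on the next. A further SLC7A8 probe set read 93.4 and 166 and was the largest difference of any measured probe set of the list at 0.83, in a middle 95% of -1.04 to 0.93. It passed the floor on 1 array, and with the dim value raised to the floor the difference was at least 1.70-fold.

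SLC7A6 and SLC7A7 are light chains that exchange cationic for neutral amino acids. SLC7A6 was lower on all 3 of its probe sets, at 1694 and 1547 (-0.13), 940 and 838 (-0.17) and 718 and 623 (-0.20). SLC7A7 read 1060 and 924 (-0.20) on its only probe set, in a middle 95% of -0.49 to 0.45. The lowest measured probe sets of the family were among these, and they lay inside the scatter. The cationic carriers SLC7A1 and SLC7A2 need no heavy chain. SLC7A1, the chief importer of arginine and lysine in many cells, read 13646 and 16230 on its brightest probe set, a difference of 0.25 in a middle 95% of -0.26 to 0.33. Its other measured probe sets read 1571 and 1574 (0.0021), 507 and 595 (0.23), and 146 and 163 (0.17), so that all 4 were higher. Among the probe sets nearest to the brightest one in signal, the median difference was 0.080. SLC7A2, a related cationic carrier, read 434 and 468 (0.11). SLC3A1 and SLC7A9 together form the cystine and dibasic amino acid carrier of kidney and gut that is defective in cystinuria, and neither was measured. SLC3A1 read 123 and 59.2, a difference of -1.04 inside a middle 95% of -1.27 to 1.16. It passed the floor on the control array only, and with the dim value raised to the floor it was 1.26-fold lower. SLC7A9 read 59.7 and 46.9.

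Among the SLC6 carriers, which use sodium and chloride, 2 of 5 were measured. SLC6A20, a carrier of proline, was lower on both probe sets, at 1196 and 984 (-0.28) and at 1022 and 802 (-0.35), each inside a middle 95% that reached down to -0.46 and -0.52. SLC6A6, the taurine carrier, read 2251 and 2184 (-0.044) on its brightest probe set. Its dimmer measured probe sets differed in sign, at 181 and 148 (-0.29) and at 144 and 163 (0.18). The other 3 SLC6 genes were below the floor on both arrays. The glycine carrier SLC6A9 read 55.8 and 74.5, the broad neutral and cationic carrier SLC6A14 read 14.7 and 9.76, and the brightest of 5 probe sets of SLC6A15, a carrier of branched-chain amino acids, read 49.0 and 22.9.

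SLC36A1, a proton-coupled carrier of small amino acids found on lysosomes and at the cell surface, had the lowest difference of the 24 measured genes. It read 839 on the control array and 650 on the PGR siRNA array, which is -0.37 in a middle 95% of -0.51 to 0.47. Its dimmer probe set read 128 and 89.0 (-0.52), past the floor on the control array only. Both probe sets were thus lower, and neither reached 1.5-fold. SLC36A4, a carrier of proline and tryptophan, read 250 and 257 (0.039). Its remaining probe set was below the floor on both arrays.

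The SLC38 carriers import glutamine and small neutral amino acids or pass them across the lysosomal membrane. SLC38A1 and SLC38A2, the sodium-coupled glutamine and alanine importers of the cell surface, differed little on their brightest probe sets, SLC38A2 at 17986 and 19211 (0.095) and SLC38A1 at 13756 and 14149 (0.041). The other SLC38A2 probe sets read 13717 and 14343 (0.064) and 12333 and 13575 (0.14). The other measured SLC38A1 probe sets read 7881 and 8799 (0.16) and 354 and 460 (0.38). All 6 of these probe sets were higher, and the median of the probe sets nearest to the brightest ones was itself 0.080. The brightest 2 SLC38A2 probe sets carry the array maker's mark for probes that may also bind other transcripts.

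SLC38A3, a glutamine and histidine carrier best known from liver and brain, had the highest difference of the measured genes. Its only probe set read 88.0 on the control array, below the floor, and 154 on the PGR siRNA array, a difference of 0.80. With the dim value raised to the floor this was at least 1.57-fold higher. At that low signal the middle 95% ran from -1.10 to 0.96, so the value lay inside the scatter. SLC38A5, the related glutamine carrier, read 49.2 and 18.9 and SLC38A4, a carrier of neutral and cationic amino acids of liver, read 18.2 and 4.95, both below the floor.

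SLC38A7 and SLC38A9 act on lysosomes. SLC38A7, which exports glutamine and asparagine from them, was higher on its 3 measured probe sets, at 467 and 554 (0.25), 285 and 319 (0.16) and 229 and 312 (0.44). SLC38A9, the arginine sensor that signals to mTORC1, read 655 and 643 (-0.025). The lysosomal carriers therefore held both the lowest measured value, that of SLC36A1, and 3 higher probe sets of SLC38A7, all within their scatter. SLC38A10 read 1006 and 1333 on its brightest probe set, a difference of 0.41 in a middle 95% of -0.42 to 0.45, which was the highest among genes past the floor on both arrays. The other measured SLC38A10 probe set went the opposite way, at 701 and 619 (-0.18), and 5 more were below the floor, so the gene has no settled direction. SLC38A6 read 894 and 890 (-0.0068), the smallest difference of the list.

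The uniporters SLC43A1, SLC43A2 and SLC16A10 let amino acids leave or enter down their gradient. SLC43A1, which carries branched-chain amino acids, read 642 and 761 (0.24) in a middle 95% of -0.52 to 0.50. SLC43A2, a related carrier of neutral amino acids, read 99.7 and 113 (0.18), just above the floor. Its other probe set read 12.2 and 110, past the floor on the PGR siRNA array only, which is at least 1.12-fold higher. The difference of that probe set, 3.07, lay above its middle 95% of -2.53 to 2.53, with a mean signal below the floor. SLC16A10, the carrier of aromatic amino acids, read 268 and 219 (-0.29) in a middle 95% of -0.71 to 0.75. The uniporters were thus split, with the branched-chain and neutral carriers higher and the aromatic carrier lower.

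By family, the median difference of the measured genes was -0.13 for SLC1 (3 genes, all lower), 0.028 for SLC3 and SLC7 (7 genes, 4 higher), -0.16 for SLC6 (2 genes, both lower), -0.16 for SLC36 (2 genes, 1 higher), 0.095 for SLC38 (7 genes, 5 higher) and 0.18 for the uniporters (3 genes, 2 higher). Groups of this size were described and not compared. Among measured genes with the ATF4 element in a promoter entry, SLC7A1, SLC3A2 and SLC38A1 were higher and SLC1A4 and SLC1A5 lower. Among those with the E-box, SLC38A7, SLC43A1 and SLC7A8 were higher and SLC36A1, SLC7A7, SLC1A5 and SLC7A5 lower. Genes with either motif thus stood on both sides of 0, each within the scatter of like signal, and a link of motif and direction was not tested.

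Probe sets of the same gene gave the only repeated reading in these data, and they share the RNA sample. Of the 12 carriers with at least 2 measured probe sets, 8 had a single sign in all of them. SLC7A1, SLC38A1, SLC38A2 and SLC38A7 were higher throughout, and SLC1A1, SLC7A6, SLC6A20 and SLC36A1 were lower throughout. Among all genes with at least 2 measured probe sets, 44.6% had a single sign. The standard deviation of the difference between probe sets within a gene was 0.21 over the carriers and 0.29 over all genes. SLC1A4, SLC6A6, SLC7A8 and SLC38A10 were mixed. In SLC7A8 the only lower measured probe set (-0.084), and in SLC1A4 one of the higher ones (0.015), carry the mark for probes that may bind other transcripts. All other measured probe sets of both genes carry a different mark of the array maker (_s), so the marks do not settle a direction. The plot of every probe set shows the filled points within 1.5-fold, apart from 1 of SLC38A3 and 1 of SLC7A8, and the open points spread widely.

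**Figure D2:**
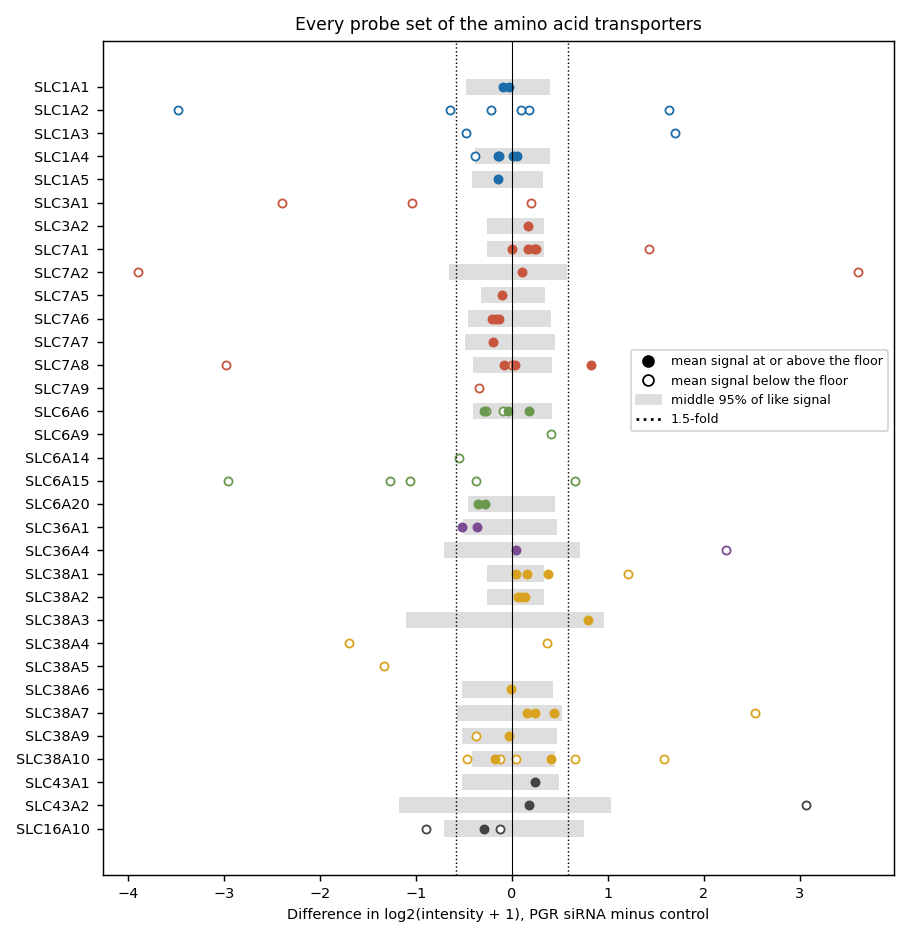
Difference in log2(intensity + 1), PGR siRNA minus control, for all 88 probe sets of the 33 carriers, filled where the mean signal reached the floor and open where it did not, with the middle 95% of like signal for the brightest probe set of each measured gene as a grey bar and 1.5-fold as dotted lines. Of the 46 measured probe sets, only 1 of SLC38A3 (0.80) and 1 of SLC7A8 (0.83) pass 1.5-fold. The share of all measured probe sets past 1.5-fold was not computed, so this count is no result about the carriers. Dimmer filled points can lie outside a grey bar, which is that of the brightest probe set. Open points reach -3.89 and 3.61, both in SLC7A2.

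Of the 42 probe sets below the floor in mean signal, 23 differed by at least 1.5-fold and 19 by at least 2-fold, with a median absolute difference of 0.66 against 0.16 for the 46 measured ones. Of all 20797 named probe sets below the floor, 62.3% differed by at least 1.5-fold and 44.3% by at least 2-fold, and counts near that background are no result about the carriers. SLC7A2 shows how little such values fix a direction. One of its dim probe sets read 2.79 and 45.3 (3.61) and another 42.7 and 1.94 (-3.89), while the measured one stood at 0.11. The plot of difference against signal shows the same widening over all named probe sets.

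**Figure D3:**
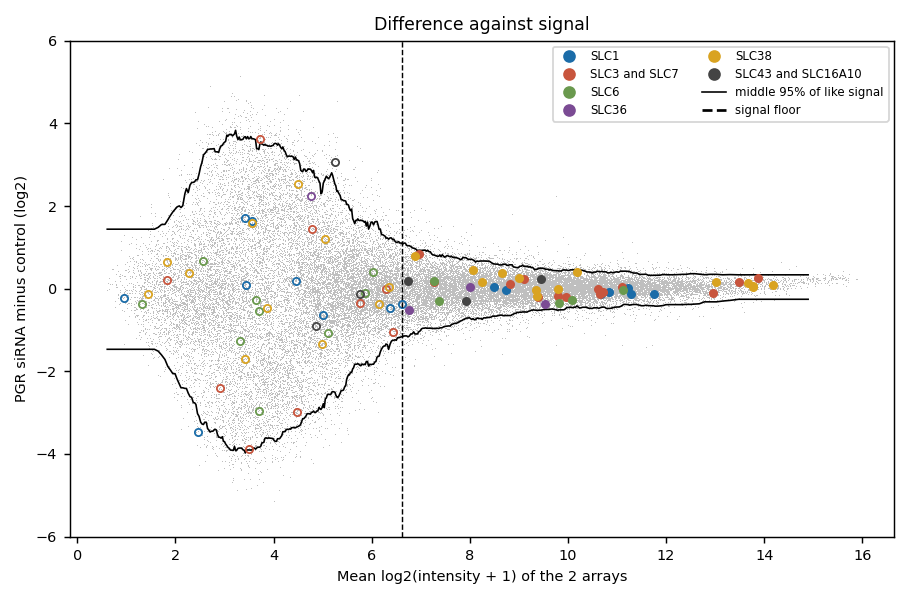
Difference between the arrays (PGR siRNA minus control, log2) against the mean log2(intensity + 1) of both arrays, with all named probe sets in grey, those of the carriers coloured by family (filled where measured), the signal floor dashed and the middle 95% of like signal as black lines. The black lines narrow toward high signal, and all 46 filled points lie between them, as most named probe sets do by the way the lines are drawn.

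Related genes were read from lists of other carriers, sensors, enzymes and regulators, which are described by counts because no test was possible. Of 15 measured genes among other amino acid carriers, 12 were higher and 3 lower, with a median of 0.12, beside 53.8% higher and a median of 0.023 over all measured genes. Several of the 12 were lower by the mean over all their probe sets, dim ones included, so this split depends on reading the brightest probe set. SLC6A19, the neutral amino acid carrier of gut and kidney, was the one past 1.5-fold, at 85.4 and 137 (0.67), below the floor on the control array and inside a middle 95% of -1.15 to 1.04. Its other probe sets, both below the floor, were lower at -0.089 and -1.41, and the mean over all 3 was -0.28. SLC7A11, the cystine importer that also pairs with SLC3A2, read 13529 and 14739 (0.12) and was picked out for that role after its values were seen.

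The amino acid sensing genes upstream of mTORC1 had 29 measured members, 17 higher and 12 lower, with a median of 0.045. NPRL3, a subunit of the complex that restrains mTORC1 when amino acids are short, read 497 and 902 (0.86) and lay outside its middle 95% of -0.53 to 0.47. Its other probe sets past the floor read 329 and 366 (0.16) and 128 and 147 (0.20), so all 3 of these were higher and differed in size. The remaining NPRL3 probe set, below the floor on both arrays, read 73.6 and 5.24 (-3.58), and the mean over all 4 was -0.59, so that the gene's direction depends on the floor.

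The ATF4 amino acid response genes were split evenly, 15 higher and 15 lower of 30, with a median of 0.0042. CTH, which makes cysteine, was the one past 1.5-fold at 1713 and 1121 (-0.61), and its other probe set was lower as well, at 798 and 559 (-0.51). The first lay below its middle 95% of -0.47 to 0.40 and the second within its own. ATF4 itself, added after its values were seen, read 25178 and 27077 (0.10).

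Of 18 measured enzymes of the amino acids carried, 11 were higher and 7 lower, with a median of 0.080. PRODH, which begins the breakdown of proline, was the one past 1.5-fold, at 77.2 and 130 (0.74), below the floor on the control array and inside its middle 95% of -1.14 to 1.10. Among 6 measured transcription factors known to act on the carriers, MYC was the highest at 4960 and 5941 (0.26) and EPAS1, a hypoxia factor, the lowest at 1494 and 1319 (-0.18). None of the 6 passed 1.5-fold.

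**Figure D4:**
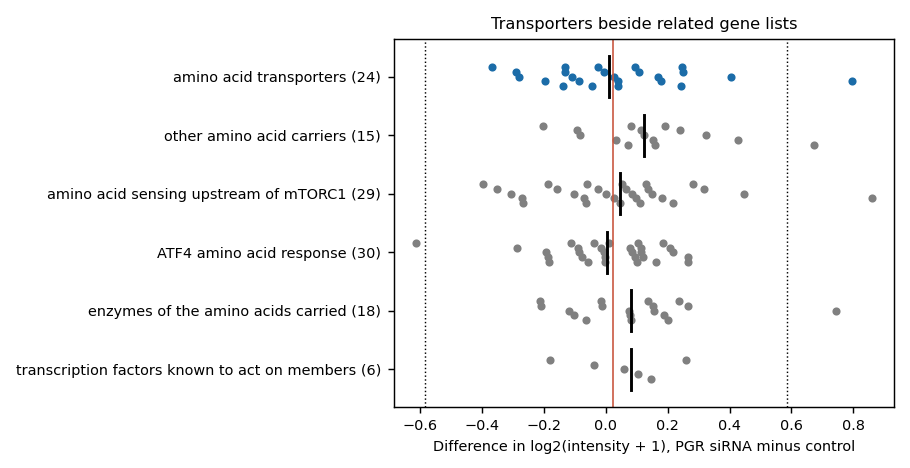
Difference in log2(intensity + 1), PGR siRNA minus control, for each measured gene of the 33 carriers and of 5 related lists, with the number measured in brackets, the list's median as a black bar, the median of all measured genes (0.023) as a red line and 1.5-fold as dotted lines. Medians run from 0.0042 to 0.12, and 5 genes lie past 1.5-fold, with CTH the only one on the lower side.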

How the data were processed

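AsPC-1 cells given control or PGR siRNA were profiled on 3′ expression arrays, 1 per condition. Per probe set and array, the authors deposited a single intensity on a linear scale. The summary algorithm, background correction and scaling are not given in the sources used here. Equal trimmed means show a scaling before deposition, so a difference in overall brightness between the cultures would not show. Both columns were mapped by their labels.

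Probe sets were named from the platform annotation (41097 with 1 symbol, 1801 with several, 11777 with none), and symbols were updated through gene identifiers to RefSeq for 41043. Values were put on log2(intensity + 1). A gene was kept where the mean log2 value of its brightest probe set reached 6.63, since a filter on the higher value keeps genes because they differ. No test was possible with single arrays, so no p-value is given, and precision is limited by their number. The members and lists were chosen with earlier results of these data known. All carriers and PGR are named, and of each other list every measured gene past 1.5-fold, or else the highest and lowest, apart from SLC7A11 and ATF4.

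Alternatives were the mean of all probe sets, other signal filters, median centring, an offset of 16, loess (span 0.7), quantile normalization, counts by probe set and a 2-fold rule. Subtraction of the median of like signal and the mean of probe sets past the floor were chosen after seeing the data. The calculation was tested on simulated data. Protein sequences were not analysed here. The steps ran in Python 3.11.15 with pandas 2.3.3, numpy 2.4.6, statsmodels 0.14.6, scipy 1.17.1 and, for plots, matplotlib 3.10.9.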

Additional observations from a re-analysis of the deposited data

How the results depend on the processing

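With 1 array per condition no replicate could be left out, and no paired analysis was possible because each group holds a single sample. The count of carriers at least 1.5-fold higher was 1 (SLC38A3). Averaging all probe sets of a gene gave 2 (SLC38A3 and SLC38A7, of 19 measured), where 4.11% of all genes were that much higher against 2.45% in the report. Counting probe sets gave 2 (SLC38A3 and SLC7A8), and the share over all measured probe sets was not computed. The count was 0 with the floor required on both arrays (1.86% of all genes higher), with a floor at the 75th percentile (0.38%) or at 2-fold (0.351%). The count at least 1.5-fold lower was 0. It was 1 with the floor reached on either array (SLC3A1, where 4.72% of all genes were lower against 3.03%) and 5 with no floor (SLC1A2, SLC38A4, SLC38A5, SLC3A1 and SLC6A15), where 14.0% of all genes were higher and 16.6% lower by that rule. The median of the carriers ran from -0.11 to 0.061 over 11 alternatives, and median centring moved the median of all measured genes from 0.023 to 0.073. Of the 24 measured carriers, 18 kept 1 sign in every setting in which they were scored, 9 higher and 9 lower. The others, SLC38A1, SLC38A2, SLC38A6, SLC38A9, SLC6A6 and SLC7A8, changed sign in at least 1. The same count over all measured genes was not made, so 18 is no result about the carriers. A kept sign is also no settled direction, since the 18 include SLC38A10 and SLC1A4, whose measured probe sets differ in sign. SLC16A10, SLC36A4, SLC38A10, SLC43A2 and SLC7A2 fell below the floor by the mean of all probe sets and were not scored there. That mean was -0.058 for SLC7A2, against 0.11 for its brightest probe set. Of the 163 values of single carriers scored under an alternative, 157 moved by less than 1 standard deviation of the differences of like signal. The 6 that moved by more all came from averaging probe sets. The offset, centring, loess, quantile normalization and subtraction of the median only rescale the same arrays. Small moves there were largely fixed in advance, so the count of 157 is no result about the carriers. Among the scored values the widest ranges were -0.44 to 0.26 for SLC7A8, 0.24 to 0.84 for SLC38A7 and -0.039 to 0.45 for SLC38A1, while SLC38A10 ran from 0.11 to 0.46. The unscored means of all probe sets lay further off for SLC43A2 (1.62) and SLC36A4 (1.14), whose brightest probe sets gave 0.18 and 0.039. Low signal limits the 9 carriers not measured.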
